A study of Homo sapiens with 12 samples.

Results

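The 10 genes described here encode the CoREST complex, which Corin was made to inhibit, and the acetyltransferases p300 and CBP, which act in the opposite direction on histone acetylation. They were chosen by name and not by their measured values, though with earlier results of these data known. The genes are KDM1A, RCOR1, RCOR2, RCOR3, PHF21A, HMG20B, HDAC1, HDAC2, EP300 and CREBBP, out of 19951 protein-coding genes of the GENCODE annotation on hg38. What was measured is the histone mark H3K4me2 in the chromatin of these genes, over the canonical start site, within 50 kb of it and in the gene body. The data say where the mark lies, and hold no RNA or protein level of any gene.

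All libraries came from U-937, an established human myeloid leukaemia line of monocytic character. Cells were kept for 24 hours with the vehicle DMSO, with all-trans retinoic acid (ATRA) at 0.1 µM, with Corin at 0.1 µM, or with ATRA and Corin together at 0.1 µM each. Each treatment has 2 H3K4me2 libraries and 1 input library, 12 libraries in all. The files hold 1 peak list per treatment, taken here as made from its libraries together, and give no value for a single library. The spread between replicates is therefore unknown, no test across treatments was possible, and whether neighbours in any order of levels differ cannot be judged. Every comparison below is between 4 peak lists, and the 3 drug lists are compared with the same DMSO list.

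CoREST is a repressor complex. In it the demethylase LSD1, the product of KDM1A, removes methyl groups from H3K4me1 and H3K4me2, HDAC1 or HDAC2 removes acetyl groups from histone tails, and an RCOR protein holds the enzymes together. p300 and CBP acetylate histones at enhancers and promoters and serve as coactivators of many transcription factors, retinoic acid receptors among them. H3K4me2 itself marks promoters, where it flanks the start site, and enhancers. Corin joins an LSD1 inhibitor to a deacetylase inhibitor in a single molecule.

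The lists held from 65172 peaks (DMSO) to 83969 (ATRA+Corin), and their H3K4me2 depth relative to DMSO, recovered from the deposited statistics, was 1.016 (ATRA), 1.097 (Corin) and 1.199 (ATRA+Corin). The number of peaks and the depth thus moved together over the lists, and values at equal depth are given beside the net changes in regions. At equal depth, peaks were scaled to the depth of the DMSO list and kept at a recomputed −log10 p of at least 5. This cut left 55617 peaks in DMSO itself, so values at equal depth mix a stricter threshold with depth. Of 11 myelomonocytic marker genes, 10 had a peak within 1 kb of the start site in every list, and MPO had none. The same was true of 2 of 4 lymphoid markers, 1 of 3 erythroid markers (KLF1) and 0 of 3 epithelial markers. All 10 CoREST and p300/CBP genes had a peak within 1 kb of the start site in every list. Their values are therefore set beside those of the 12044 protein-coding genes of which the same is true, called marked genes below.

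Fewer of these start sites had a peak over the very base in the lists with Corin, a count that rests on narrow gaps. A start site counted as covered when a peak lay over its base. In the DMSO list 8 of the 10 genes were covered, compared with 78.0% of the marked genes, and in the ATRA list 9 of 10, compared with 79.1%. In the Corin list 4 of 10 were covered (62.4% of the marked genes), and in the ATRA+Corin list 6 of 10 (62.0%). KDM1A, RCOR2 and HDAC2 were covered in every list and CREBBP in none. Of the 8 genes covered in DMSO, 0 were uncovered in ATRA, against 8.24% of all genes covered in DMSO. In Corin 4 of the 8 were uncovered (RCOR1, RCOR3, PHF21A and EP300), against 24.4%. In ATRA+Corin 3 of the 8 were uncovered (RCOR1, RCOR3 and HDAC1), against 25.3%. No test was possible on so few genes and single lists. Peaks stayed on both sides of these start sites, and a gap of 113 to 292 bp lay over the start site of those that were covered in DMSO. With a peak within 100 bp of the start site counted as cover, 9 of the 10 genes were covered in DMSO, 10 in ATRA, 9 in Corin and 9 in ATRA+Corin, so that the difference from DMSO was gone.

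**Figure D1:**
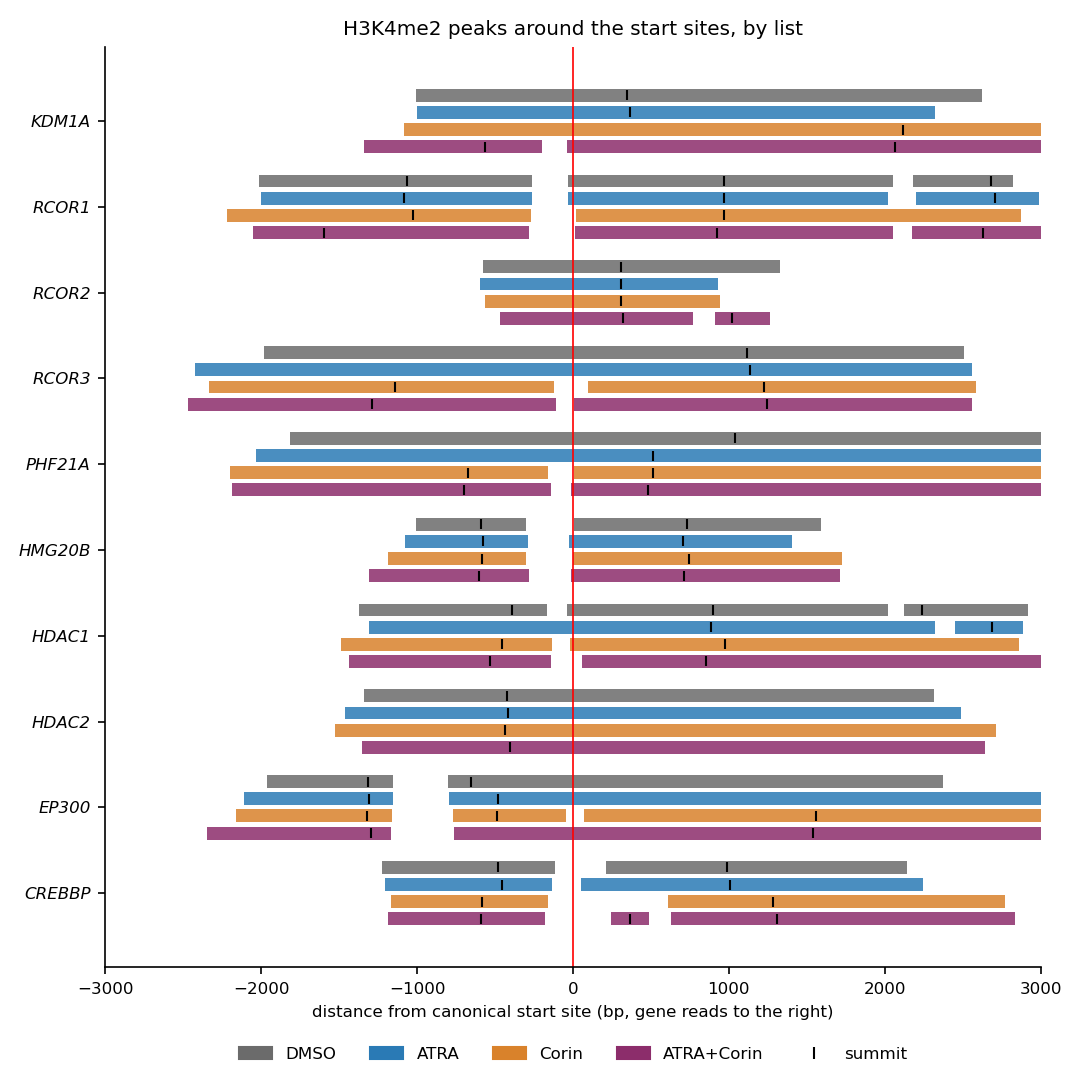
Peaks of the 4 lists (coloured bars) and their summits (black ticks) by distance from the canonical start site in bp, with each gene reading to the right and the red line at the start site. The Corin bar of RCOR1, RCOR3, PHF21A and EP300 is interrupted at the start site, the bars of CREBBP are interrupted in every list, and those of RCOR2 and HDAC2 run across it in every list.

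The bases just before the start sites of 4 genes are printed to show what lies in these gaps. The start site lay in a gap in both lists with Corin at RCOR1 and RCOR3, in every list at CREBBP and in none at HDAC2. At RCOR1 most of the gap was there in DMSO and ATRA too, just upstream of a peak that reached 29 and 35 bp before the start site. Each line gives the 120 bases of the hg38 reference that end at the base before the canonical start site, 5′ to 3′ on the gene's own strand. Capitals mark matches, on either strand, to GGGCGG (Sp/KLF), CCAAT (NF-Y), CCGGAAG (ETS), TGACGTCA (CRE) or TATAAA, where neighbouring matches may overlap.
RCOR1 (chr14:102592529-102592648, plus strand): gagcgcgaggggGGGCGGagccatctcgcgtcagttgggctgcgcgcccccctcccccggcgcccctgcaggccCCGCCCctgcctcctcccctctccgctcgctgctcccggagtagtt
RCOR3 (chr1:211259246-211259365, plus strand): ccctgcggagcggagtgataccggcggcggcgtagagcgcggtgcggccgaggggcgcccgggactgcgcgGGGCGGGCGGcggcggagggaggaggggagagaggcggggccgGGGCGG
CREBBP (chr16:3880714-3880833, minus strand): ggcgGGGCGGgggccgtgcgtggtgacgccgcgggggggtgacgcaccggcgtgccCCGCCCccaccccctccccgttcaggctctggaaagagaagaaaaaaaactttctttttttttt
HDAC2 (chr6:113971149-113971268, minus strand): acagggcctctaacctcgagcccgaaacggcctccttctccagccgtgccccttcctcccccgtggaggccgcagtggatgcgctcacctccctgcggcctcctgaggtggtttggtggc

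The stretches of RCOR1, RCOR3 and CREBBP hold 2, 3 and 2 GGGCGG matches, and that of HDAC2 holds none of the 5 motifs. Over the 250 bases before the start site, GGGCGG was present in 8 of the 10 genes, compared with 71.95% of the marked genes and 59.03% of all protein-coding genes. These included KDM1A and RCOR2, whose start sites were covered in every list. GGGCGG was absent at HDAC2 and at EP300, whose start site lay in a gap in Corin. CCAAT was present in 3 of the 10 (RCOR1, HMG20B and HDAC1), compared with 34.75% of the marked genes. CCGGAAG, TGACGTCA and TATAAA were present in 0 of the 10, compared with 17.4%, 3.21% and 5.01% of the marked genes. The G+C content of these 250 bases had a median of 74.2% over the 10 genes and 66.0% over the marked genes. PHF21A had the highest G+C content of the 10, at 84.0%, and the start sites that stayed covered in every list belonged to HDAC2 (63.2%), KDM1A (64.0%) and RCOR2 (76.0%). A match is a run of letters and says nothing about binding.

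Besides cover, a level was taken for each gene as the largest number of H3K4me2 fragments at a peak summit within 2.5 kb of the start site, recovered from the deposited fold and p-value and divided by the list's depth relative to DMSO. Ratios of levels carry exact 95% binomial intervals, which cover counting error only. Among the marked genes the median ratio to DMSO was 1.301 in ATRA, 0.748 in Corin and 0.976 in ATRA+Corin (a shift of 0.38, -0.42 and -0.04 on the log2 scale), and the 10 genes are read against these shifts. A level below that in DMSO was found for 0 of the 10 genes in ATRA (4.13% of the marked genes), for 10 of 10 in Corin (86.3%) and for 7 of 10 in ATRA+Corin (54.4%). The level counts fragments and does not subtract the input. On the deposited fold enrichment over local input at the same summits, 2 of the 10 genes were lower than in DMSO in ATRA (22.3% of the marked genes), 6 in Corin (70.2%) and 4 in ATRA+Corin (45.1%). The genes whose direction turned with the measure were PHF21A and CREBBP in ATRA, KDM1A, RCOR1, PHF21A and EP300 in Corin, and RCOR1, PHF21A and EP300 in ATRA+Corin.

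KDM1A encodes LSD1, the demethylase of the complex and a target of Corin (chr1:23019443-23083689, plus strand). Its start site was covered in every list. Its level was 113 fragments in DMSO, 131.9 in ATRA, 99.4 in Corin and 133.4 in ATRA+Corin. The ratio to DMSO was 0.879 in Corin (0.670 to 1.154) and 1.181 in ATRA+Corin (0.922 to 1.516), both at a higher percentile than most marked genes (73.9 and 76.2). By the deposited fold the KDM1A ratio was 1.867 in ATRA, 1.043 in Corin and 1.656 in ATRA+Corin. The place of the highest summit moved: it lay at 346 and 365 bp in DMSO and ATRA, and at 2120 and 2069 bp in Corin and ATRA+Corin. The ratios in the lists with Corin therefore compare different sites. A highest summit at least 500 bp farther from the start site than in DMSO was seen in 1 of the 10 genes in Corin (KDM1A, against 19.2% of the marked genes) and in 2 of 10 in ATRA+Corin (KDM1A and RCOR1, against 19.8%). The region at KDM1A that was strongest in ATRA+Corin among those absent from DMSO lay from -5926 to -5074 bp (chr1:23013542-23014394), with a −log10 q of 2.14 in Corin and 20.43 in ATRA+Corin. The −log10 q, here and below, is the authors' own deposited value for the strongest peak of the region, adjusted within its list. It lies outside KDM1A, and the canonical start site of TEX46 is nearer to it, at 1458 bp. A neighbouring region from -4368 to -3205 bp, over a start site of TEX46, was present in the 3 drug lists, with a −log10 q of 13.31 in ATRA, 8.19 in Corin and 5.13 in ATRA+Corin.

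RCOR1, RCOR2 and RCOR3 encode the CoREST scaffold proteins, which bind LSD1 and the deacetylases, and RCOR1 is the founding member. RCOR3 (chr1:211258377-211316385, plus strand) had the lowest ratios of fragments among the 10 genes in both lists with Corin. Its level was 198 fragments in DMSO, 236.2 in ATRA, 93.9 in Corin and 100.1 in ATRA+Corin. The highest summit stayed at nearly the same place, between 1118 and 1246 bp, so the same site was compared. The ratio to DMSO was 0.474 in Corin (0.370 to 0.605) and 0.505 in ATRA+Corin (0.400 to 0.637), at percentiles 1.8 and 1.1 of the marked genes. On the deposited fold the direction was the same and the place less extreme: fold enrichment was 24.4 in DMSO, 41.3 in ATRA, 13.7 in Corin and 21.1 in ATRA+Corin, and the ratios to DMSO in the lists with Corin lay at percentiles 19.6 and 32.1. By the fold, RCOR2, HDAC1 and HDAC2 lay below RCOR3 in Corin, and RCOR2 and HDAC2 below it in ATRA+Corin. The RCOR3 start site was under a peak in DMSO and ATRA and in a gap of 222 bp in Corin and 120 bp in ATRA+Corin. In ATRA+Corin the gap ended 8 bp after the start site, so the call depends on a few bases.

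RCOR1 (chr14:102592649-102730561, plus strand) was the other gene covered in DMSO and uncovered in both lists with Corin. Its covering peak reached only 29 bp upstream of the start site in DMSO and 35 bp in ATRA, and began 19 bp downstream in Corin and 10 bp downstream in ATRA+Corin. The change in cover was therefore a small shift of a peak edge. The level told more: at the downstream summit, between 924 and 972 bp, there were 140 fragments in DMSO, 134.8 in ATRA, 79.3 in Corin and 69.2 in ATRA+Corin. By the highest summit within 2.5 kb the ratio to DMSO was 0.547 in Corin (0.414 to 0.718) and 0.598 in ATRA+Corin (0.460 to 0.775), at percentiles 6.6 and 3.5. By the deposited fold at these highest summits, which lay at different places, the ratios were 1.047 and 1.129, and the direction turned. At the downstream summit, the same place in each list, the deposited fold of RCOR1 was 26.7 in DMSO, 31.4 in ATRA, 18.75 in Corin and 9.74 in ATRA+Corin. It was lower there in both lists with Corin, as the fragments were. The upstream peak held 145 fragments in DMSO, 73.8 in Corin and 86.7 in ATRA+Corin, with summits at -1062, -1027 and -1598 bp. Its fold was 17.9, 17.5 and 20.2 in the same order, and so did not fall as the fragments did.

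RCOR2 (chr11:63911230-63917164, minus strand) is a short gene of 5935 bp and its start site was covered in every list. Its level was 219 fragments in DMSO, 238.2 in ATRA, 122.2 in Corin and 176.8 in ATRA+Corin, always at a summit between 306 and 321 bp. The ratio to DMSO in Corin, 0.558 (0.446 to 0.695), was like that of RCOR1, while in ATRA+Corin it was 0.807 (0.665 to 0.980). The deposited fold was 48.5 in DMSO, 50.5 in ATRA, 20.5 in Corin and 30.96 in ATRA+Corin.

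PHF21A encodes BHC80, a subunit that reads unmethylated H3K4, and HMG20B encodes BRAF35, a subunit with an HMG box that binds DNA. At PHF21A (chr11:45929319-46121454, minus strand) a peak of over 5 kb lay across the start site in DMSO (5197 bp) and ATRA (5401 bp). In Corin it was split by a gap of 167 bp, and in ATRA+Corin by a gap that ended 13 bp before the start site, which was thus covered. Its level was 127 fragments in DMSO, 166.3 in ATRA, 72.9 in Corin and 98.4 in ATRA+Corin. In Corin this was 0.574 times the DMSO level (0.429 to 0.766), at percentile 10.1. By the deposited fold at the highest summits, which lay at different places, the PHF21A ratio was 0.831 in ATRA, 1.102 in Corin and 1.457 in ATRA+Corin, the opposite direction to the fragments in each list.

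HMG20B (chr19:3572777-3579088, plus strand) had the highest level of the 10 genes in every list. The level was 280 fragments in DMSO, 406.5 in ATRA, 205.1 in Corin and 292.7 in ATRA+Corin. Its ratio to DMSO, 1.452 in ATRA (1.244 to 1.696) and 0.733 in Corin (0.612 to 0.876), followed the shift of the marked genes, at percentiles 78.6 and 46.4. The start site lay at the very edge of a peak in every list. The peak began 8 bp after it in DMSO and 1 bp after it in Corin, and reached 24 bp before it in ATRA and 11 bp before it in ATRA+Corin, so cover of HMG20B carries little information.

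HDAC1 and HDAC2 encode the deacetylases of the complex, which also serve the NuRD, SIN3 and MiDAC complexes. At HDAC1 (chr1:32292083-32333635, plus strand) the level was 146 fragments in DMSO, 195.9 in ATRA, 118.5 in Corin and 151.8 in ATRA+Corin. The ratio to DMSO was 0.812 in Corin (0.636 to 1.035) and 1.040 in ATRA+Corin (0.832 to 1.302), near the shift of the marked genes. By the deposited fold, with summits at 900 bp in DMSO and 976 bp in Corin, the HDAC1 ratio in Corin was 0.484, at percentile 12.1. Where the peak strongest by p-value was used in place of the one with the most fragments, the HDAC1 ratio in Corin was 0.593. That ratio compares different sites, a summit at -457 bp in Corin and at 900 bp in DMSO. The upstream peak alone held 95 fragments in DMSO and 86.6 in Corin. The start site was covered in DMSO, ATRA and Corin and lay in a gap of 196 bp in ATRA+Corin. At HDAC2 (chr6:113933028-114011308, minus strand) a peak ran across the start site in every list, from at least 1338 bp before it to at least 2317 bp after it. Its level was 102 fragments in DMSO, 133.9 in ATRA, 66.5 in Corin and 70.1 in ATRA+Corin. The ratio to DMSO was 0.652 in Corin (0.476 to 0.890) and 0.687 in ATRA+Corin (0.508 to 0.926), the latter at percentile 8.6.

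EP300 and CREBBP encode the paralogous acetyltransferases p300 and CBP. At EP300 (chr22:41092592-41180077, plus strand) the upstream summit near -1315 bp, which lay in every list, held 100 fragments in DMSO, 123 in ATRA, 56.5 in Corin and 55.9 in ATRA+Corin. In the lists with Corin the highest summit was another one, at 1559 bp in Corin (61.1 fragments) and at 1542 bp in ATRA+Corin (76.7 fragments). The ratio of levels to DMSO was 0.611 in Corin (0.441 to 0.841) and 0.767 in ATRA+Corin (0.572 to 1.029). By the deposited fold at the highest summits it was 1.172 and 1.444, and the direction turned. At the upstream summit the deposited fold of EP300 was 12.41 in DMSO, 12.44 in ATRA, 11.37 in Corin and 13.14 in ATRA+Corin. In ATRA the EP300 ratio was 1.230 by the highest summit and 0.896 by the peak strongest by p-value. The latter compares different sites, with the summit at -1315 bp in DMSO and at -484 bp in ATRA. The peak over the start site, which holds the ATRA summit, had 86 fragments in DMSO and 89.6 in ATRA. The EP300 start site lay in a gap of 113 bp in Corin alone.

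CREBBP (chr16:3725054-3880713, minus strand) had its start site in a gap in every list, of 324 bp in DMSO, 191 bp in ATRA, 766 bp in Corin and 419 bp in ATRA+Corin. Its highest summit lay upstream, between -589 and -457 bp, and held 206 fragments in DMSO, 255.9 in ATRA, 145.9 in Corin and 183.5 in ATRA+Corin. This gave a ratio to DMSO of 0.708 in Corin (0.572 to 0.875) and 0.891 in ATRA+Corin (0.733 to 1.082). In ATRA it was 1.242 by fragments (1.031 to 1.499) and 0.790 by the deposited fold. The downstream summit of CREBBP held 166 fragments in DMSO, 219.5 in ATRA, 87.5 in Corin and 92.6 in ATRA+Corin, and moved from 987 bp in DMSO to 1282 and 1311 bp in the lists with Corin.

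**Figure D2:**
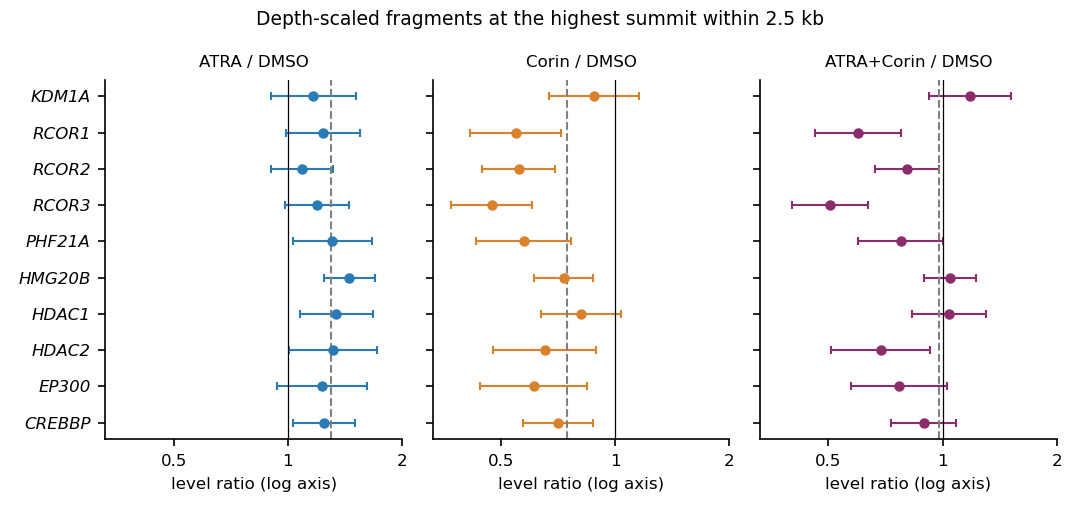
Ratio of the level in each drug list to that in DMSO, on a log axis, for the 10 genes (points, with exact 95% intervals that cover counting error only). The solid line is a ratio of 1 and the dashed line the median of the marked genes: RCOR3 and RCOR1 lie left of the dashed line in both panels with Corin, and KDM1A lies right of it.

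Downstream of the start site the covered length of most of these genes was greater in the lists with Corin. The covered length in the first 5 kb downstream was greater than in DMSO for 6 of the 10 genes in ATRA (61.9% of the marked genes), 8 in Corin (82.5%) and 9 in ATRA+Corin (83.5%). The median change over the 10 genes was 87 bp in ATRA, 418.5 bp in Corin and 695 bp in ATRA+Corin, compared with 52, 314 and 395 bp over the marked genes. At 3000 bp downstream, 1 of the 10 genes was under a DMSO peak, 2 under an ATRA peak, 5 under a Corin peak and 7 under an ATRA+Corin peak. Of the marked genes these shares were 14.3%, 16.2%, 26.3% and 30.5%. The contrast depends on the distance taken. At 2900 bp the counts were 3, 3, 3 and 7 in the same order (15.3%, 17.4%, 27.7% and 32.3% of the marked genes). At 2500 bp they were 5, 5, 8 and 8 (21.2%, 23.8%, 37.2% and 41.8%). The cover at 3000 bp was a separate short peak at CREBBP in both lists with Corin and at HDAC2 in ATRA+Corin. RCOR2 was the gene whose downstream cover was not longer than in DMSO in any drug list.

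**Figure D3:**
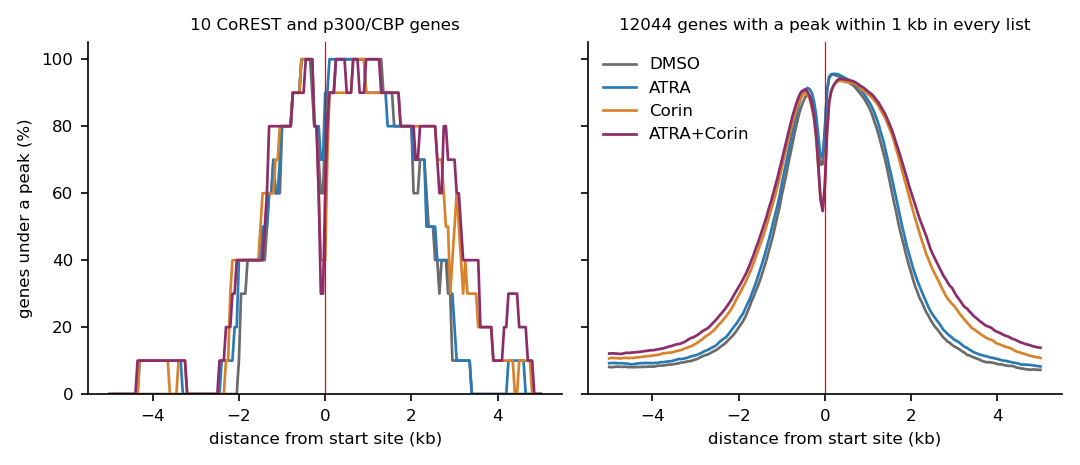
Share of genes under a peak by distance from the start site in kb, for the 10 genes (left) and the 12044 marked genes (right), 1 line per list and the red line at the start site. In both panels the lines with Corin dip lower at the start site and lie mostly higher farther downstream, but not just after the start site. The left panel moves in steps because each gene is 10% of it.

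Regions farther out were counted within 50 kb of each start site, where a region is the union of overlapping or touching peaks of the 4 lists. The windows of the 10 genes held 76 regions, of which 40 (52.63%) were in every list, compared with 51.15% of all regions. They numbered 46 in DMSO, 47 in ATRA, 52 in Corin and 69 in ATRA+Corin. Against DMSO, ATRA gained 6 and lost 5, Corin gained 10 and lost 4, and ATRA+Corin gained 27 and lost 4. A net gain was found for 3 of the 10 genes in ATRA (34.5% of the marked genes), 5 in Corin (49.5%) and 9 in ATRA+Corin (68.3%). Set against the ATRA list, ATRA+Corin had 24 regions more and 2 fewer, with a net gain at 9 genes (62.8%). Set against the Corin list it had 20 more and 3 fewer, with a net gain at 8 (53.7%). The mean net gain per gene with the combination against DMSO was 2.3 regions, compared with 1.785 over the marked genes. Most of the gained regions were weak: 10 of the 27 had a −log10 q of at least 5, compared with 42.0% of all regions gained by the combination. The net gain of 23 regions with the combination was 16 at equal depth, 10 with peaks of a −log10 q of at least 5 alone, 10 with peaks within 1 kb merged and 7 with the same number of peaks in every list. At equal depth the net change was 0 in ATRA and 2 in Corin, and that of the combination was 16 against ATRA and 14 against Corin.

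With every peak counted, RCOR1 and CREBBP had the largest gains. RCOR1 had 7 regions in DMSO, 8 in ATRA, 8 in Corin and 13 in ATRA+Corin, and its net gain of 6 lay at percentile 94.98 of the marked genes. CREBBP had 5 in DMSO, 5 in ATRA, 7 in Corin and 10 in ATRA+Corin, a net gain of 5 at percentile 91.66. PHF21A followed, with 3, 3, 4 and 6 regions in the same order. The remaining genes changed by at most 2 regions. KDM1A had 2, 3, 4 and 4 regions, HDAC1 had 6, 6, 5 and 8, HDAC2 had 3, 3, 3 and 5, and EP300 had 4, 5, 5 and 6. HMG20B had 7, 6, 7 and 8 regions and RCOR3 had 1, 1, 1 and 2. RCOR2, with 8, 7, 8 and 7 regions, was the gene with a net loss in ATRA+Corin. Most regions gained over DMSO with the combination at RCOR1 and CREBBP, and all at PHF21A, had a −log10 q below 5. Those gained at KDM1A had a −log10 q of 20.43 and 5.13, so the order of the genes rests largely on weak peaks. RCOR1, RCOR3, PHF21A, HDAC2, EP300 and CREBBP have no other protein-coding start site within 50 kb, while HMG20B has 4, HDAC1 has 3, KDM1A has 2 and RCOR2 has 1, whose regions fall into the counts.

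Regions in the ATRA+Corin list alone numbered 17 of the 76 within 50 kb (22.37%), compared with 16.31% of all regions. Of the 17, 14 lay in the body of the gene, where 35 of the 76 lay. Over the whole gene bodies there were 23 regions in DMSO, 22 in ATRA, 24 in Corin and 38 in ATRA+Corin, a net change of -1, 1 and 15 against DMSO. Over the marked genes the mean net change per gene body was 0.192 in ATRA, 0.390 in Corin and 0.931 in ATRA+Corin. The net change of 15 with the combination was 9 at equal depth (0 in ATRA and 0 in Corin), 4 with a −log10 q of at least 5 and 3 with peaks within 1 kb merged. RCOR1 had a net gain of 5 body regions with the combination, PHF21A and CREBBP of 3 each, and KDM1A a net loss of 1. The covered length of the RCOR1 body was 5886 bp in DMSO, 7603 bp in ATRA, 8913 bp in Corin and 12003 bp in ATRA+Corin, which is 4.27%, 5.51%, 6.46% and 8.70% of the gene.

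The covered length within 50 kb adds up bases and does not count pieces. It was greater than in DMSO for 10 of 10 genes in ATRA (78.2% of the marked genes), 10 in Corin (92.6%) and 10 in ATRA+Corin (94.5%). Summed over the genes it was 78.34 kb in DMSO, 88.08 kb in ATRA, 98.57 kb in Corin and 111.01 kb in ATRA+Corin. The ratios to DMSO were 1.124, 1.258 and 1.417, close to those over the marked genes (1.092, 1.232 and 1.358). By gene the ratio in ATRA+Corin ran from 1.145 at RCOR3 to 1.692 at KDM1A, where the covered length was 4291 bp in DMSO, 4780 bp in ATRA, 6828 bp in Corin and 7260 bp in ATRA+Corin.

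**Figure D4:**
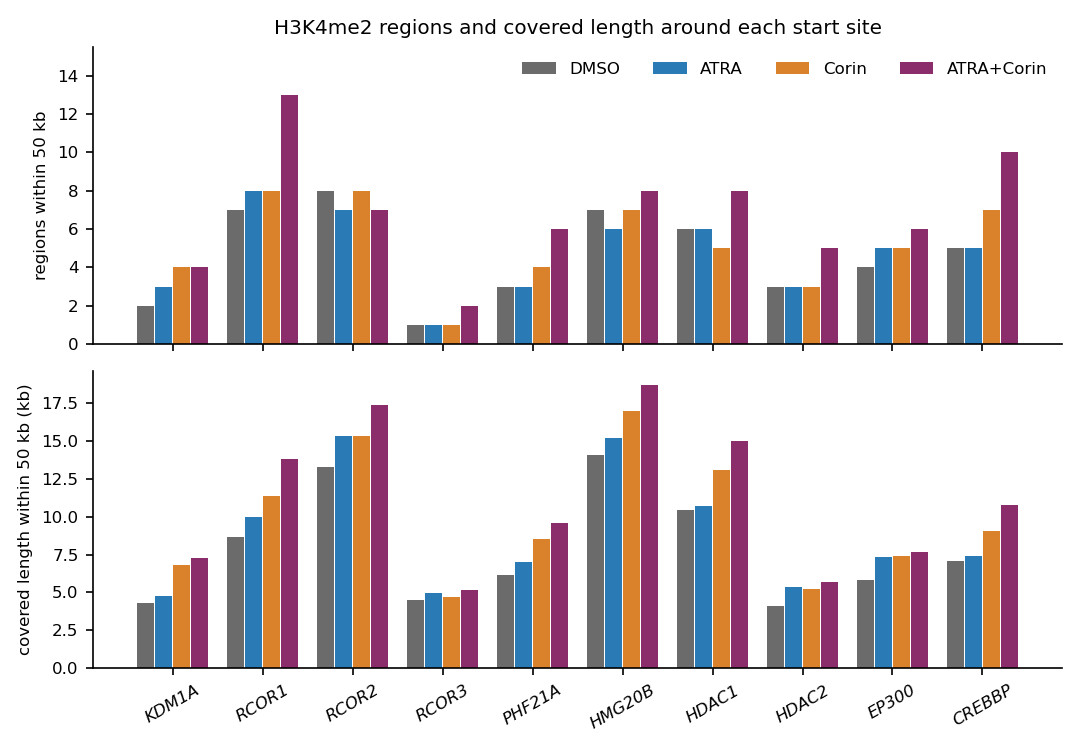
Number of regions (top) and covered length in kb (bottom) within 50 kb of each start site, 1 bar per list. RCOR1 and CREBBP reach 13 and 10 regions in ATRA+Corin, and every gene has its longest cover in that list.

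Levels in regions present in all 4 lists and over 2.5 kb from any start site were compared with those at start sites. The windows and bodies of the 10 genes held 21 such regions. Here the level is that of the strongest peak of the region by p-value. The median ratio to DMSO over the 21 regions was 1.29 in ATRA, 1.03 in Corin and 1.33 in ATRA+Corin, compared with 1.283, 0.991 and 1.263 over all 25065 such regions. Over the 12951 regions of the genome that cover a start site the medians were 1.296, 0.755 and 0.980, so in Corin the median ratio was below 1 over start sites and close to 1 over distal regions. The sequence at the distal region of CREBBP with the largest ratio in Corin is printed, chosen after its values were seen. It holds 150 bases of hg38 around the ATRA+Corin summit, on the plus strand. It has no match on either strand to AGGTCA (a nuclear receptor half-site), GAGGAAGT (PU.1), TGANTCA (AP-1), TTGCNNAA (C/EBP) or TGTGGTT (RUNX), and so no capitals, which says only that these letters are not in this window.
CREBBP intron (chr16:3857637-3857786): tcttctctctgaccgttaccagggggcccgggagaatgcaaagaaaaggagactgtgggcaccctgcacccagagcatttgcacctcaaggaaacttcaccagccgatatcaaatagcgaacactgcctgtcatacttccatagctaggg

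The RCOR1 intronic region, from 94486 to 96398 bp after the start site, had the largest ratio in ATRA of the 21. Its level was 33 fragments in DMSO, 88.6 in ATRA, 48.3 in Corin and 73.4 in ATRA+Corin, and the ratio of 2.68 in ATRA lay at percentile 99.5 of all such regions. The start site of TRAF3 is nearer to this region, at 88402 bp. Of 3 consecutive 50-base pieces around the ATRA+Corin summit of this RCOR1 region, 2 occur in a single place in hg38 and the other does not, while for the printed CREBBP stretch all 3 do. The CREBBP intronic region from 22106 to 24765 bp (chr16:3855948-3858607) held 70 fragments in DMSO, 71.9 in ATRA, 116.7 in Corin and 134.3 in ATRA+Corin. Its ratio of 1.67 in Corin lay at percentile 93.2, with no rise in ATRA (1.03, percentile 19.3). The adjoining region from 24897 to 26713 bp held 33, 43.3, 42.8 and 77.6 fragments in the same order, a ratio of 2.35 in ATRA+Corin. At EP300 the region from -24046 to -22512 bp went the other way in Corin, with 93 fragments in DMSO, 112.2 in ATRA, 63.8 in Corin and 102.6 in ATRA+Corin.

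The strongest ATRA+Corin regions absent from DMSO at RCOR1 and CREBBP lay upstream of the gene. That of RCOR1, from -19309 to -18629 bp, was in ATRA and ATRA+Corin, with a −log10 q of 4.05 and 10.80. That of CREBBP, from -22958 to -22116 bp, was in Corin and ATRA+Corin, with a −log10 q of 3.92 and 11.32. Over the 43 distal regions of the 10 genes in the ATRA+Corin list, a GAGGAAGT match lay within 300 bases around the summit in 2.3%, compared with 4.37% of all such regions. AGGTCA was found in 14 of the 43, or 32.6% (23.09% of all), with more of these regions at RCOR1 than at any other gene. TGANTCA was found in 9.3% (11.41%), TTGCNNAA in 16.3% (18.26%) and TGTGGTT in 11.6% (7.66%).

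Related genes were taken from 4 lists, chosen by their known function, and nearly all of them are marked genes (13 of 14, 27 of 27, 10 of 10 and 13 of 13). Their counts stand beside the shares of the marked genes covered, 78.0% in DMSO, 79.1% in ATRA, 62.4% in Corin and 62.0% in ATRA+Corin, and the 68.3% with a net gain of regions with the combination, at a median of 1.0. Of 14 CoREST partners and recruiters, 9 start sites were covered in DMSO, 10 in ATRA, 7 in Corin and 9 in ATRA+Corin, and CTBP1 and ZMYM2 were covered in DMSO and in neither list with Corin. Their median net change in regions with the combination was 2.5, and 10 of the 14 had a net gain, a share near that of the marked genes. The largest were at GFI1, a repressor that recruits CoREST, with 5, 8, 12 and 13 regions in DMSO, ATRA, Corin and ATRA+Corin, and at ZNF217, with 6, 9, 12 and 13. Of 27 genes of other class I deacetylase complexes, 21, 22, 16 and 14 were covered in the same order, and MIER1, MIER3, MIDEAS and HDAC8 were among those covered in DMSO and in neither list with Corin. A net gain with the combination was found for 19 of the 27, with a median of 2.0. MIDEAS, a scaffold of the mitotic deacetylase complex, went from 10 regions in DMSO to 20 in ATRA+Corin, and the corepressor NCOR1 from 3 to 10.

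Of 10 other acetyltransferases, 8 were covered in DMSO, 9 in ATRA, 5 in Corin and 4 in ATRA+Corin. KAT6A, KAT6B and KAT8 were covered in DMSO and in neither list with Corin, and 9 of the 10 had a net gain of regions with the combination, with a median of 2.0. The coactivator NCOA3 had 4 regions in DMSO and 18 in ATRA+Corin, and KAT7 had 6 and 15. Of 13 H3K4 methyltransferases, their core subunits and demethylases, 12 were covered in DMSO, 11 in ATRA, 6 in Corin and 5 in ATRA+Corin. The genes covered in DMSO and in neither list with Corin were KMT2A, KMT2B, KMT2C, ASH2L and DPY30. A net gain was found for 8 of the 13, with a median of 1.0, no more than among the marked genes. KMT2C had 5 regions in DMSO and 14 in ATRA+Corin, and SETD1A had 10 and 15.

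Genes with a like pattern of covered length over the 3 drug lists were sought for RCOR1 and HMG20B, which had the largest range of covered length (5174 and 4587 bp). The measure was the Euclidean distance of the log2 ratios to DMSO after 1000 bp was added to each length, among genes on other chromosomes with a like DMSO length. For RCOR1 the nearest of 3611 genes were USP24 (distance 0.0179), GRIN2D (0.0187) and CIB2 (0.0229). For HMG20B the nearest of 2773 were CYLD (0.0099), EIF4H (0.0232) and SNX21 (0.0260). These distances rest on 3 values per gene.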

How the data were processed

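H3K4me2 chromatin immunoprecipitation and paired-end sequencing was done in U-937 cells, and the files are 4 peak lists, 1 per treatment, each from 2 H3K4me2 libraries and 1 input; per the file names the peaks were kept when reproducible by overlap. The submitters' processing notes name Trimmomatic, Bowtie2, Picard, MACS2 and hg38, with no versions, and thresholds are not given in the sources used here. The deposited score is the authors' value per peak and was read but served no result. The deposited fold enrichment is a ratio over input at the summit, and the −log10 p and −log10 q values are the authors' own. In each list 0 peaks ended past an hg38 chromosome. Genes and canonical start sites came from GENCODE release 44.

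Computation was done with Python 3.11.15, pandas 2.3.3 and scipy 1.17.1. Overlapping or touching peaks were merged into regions. The number of fragments at each summit was solved from fold and p-value (pseudocount 1, tolerance 0.001 in −log10 p), which held for 99.92% of the ATRA peaks and 100% of the others. Depth was taken from the lowest background of each list, which assumes a like fragment length in all lists. Solving and counting were tested on simulated data. No test was made, for want of values per library.

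The genes, the other gene lists and the markers were chosen with earlier results of these data known. Named are the 10 genes whatever their values. From each other list, the genes covered in DMSO and in neither list with Corin are named, with the 2 of largest net change in regions with the combination. For 2 genes, the 3 most like them are named too. A few items that this rule would name or print are not reported here. The level, the downstream cover, the summit positions, the marked genes, the distal regions, the motifs and the printed regions were chosen after seeing the data. The level was first taken at the peak strongest by p-value and changed to the most fragments after the EP300 value was seen; both are given. The alternatives tried were a stricter −log10 q (at least 5), equal list lengths and equal depth with a −log10 p of at least 5. Others were other start sites, distances, windows, merging and overlap, regions nearest to the gene itself and, for levels, the other scales.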

Additional observations from a re-analysis of the deposited data

How the results depend on the processing

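Each treatment has 1 list, so no replicate could be left out, and the intervals cover counting error only. No paired analysis was possible because the 2 H3K4me2 libraries of a treatment were deposited as 1 list. The covered length kept its direction and moved by less than 1.5 times under every alternative run for it. Start sites covered in Corin were 7 with any annotated start site, 9 with a peak within 100 bp and 10 with a peak within 1 kb, and in ATRA+Corin 10 with a peak within 1 kb. Net regions within 50 kb in ATRA were 0 with the same number of peaks in every list and 0 at equal depth, 2 with peaks within 1 kb merged, 5 with at least 50% of the region covered, 2 in a window of 10 kb, 3 in 100 kb and 2 with regions nearest to the gene's own start site. In Corin they were 3 with a −log10 q of at least 5, 1 with the same number of peaks, 2 at equal depth, 11 with 50% covered and 15 in 100 kb. With the combination against DMSO, ATRA and Corin they were 10, 9 and 7 with a −log10 q of at least 5, 7, 7 and 6 with the same number, 10, 8 and 6 with peaks merged, and 12, 10 and 8 in 10 kb, and against DMSO and ATRA 38 and 35 in 100 kb. Net regions in gene bodies were 0 in ATRA with a −log10 q of at least 5 and 0 at equal depth, and 0 in Corin under these and with peaks merged. With the combination against DMSO, ATRA and Corin they were 4, 4 and 4 with a −log10 q of at least 5, 3, 4 and 3 with peaks merged, and 9, 9 and 9 at equal depth. Genes with a level lower than in DMSO were 2 in ATRA, 6 in Corin and 4 in ATRA+Corin by the deposited fold, and 1 in ATRA by the peak strongest by p-value. All measures of the level were chosen after seeing the data. The peak strongest by p-value was the first, and the most fragments replaced it after the EP300 value was seen. The cause of these differences was not tested.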
